A study of Homo sapiens with 4 samples.

Results

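The basement membrane genes described here are 10 genes of the thin extracellular sheet on which epithelia and endothelia rest: the type IV collagen chains COL4A1 and COL4A2, the laminin chains LAMA1, LAMA5, LAMB1, LAMB2 and LAMC1, the nidogen NID1, and the heparan sulfate proteoglycans HSPG2 (perlecan) and AGRN (agrin). They were taken from a fixed list of symbols, each matched to the entry of the deposited gene table that carries it (where several did, the one whose counts averaged highest), and all 10 were found among 62778 entries that name a gene. The libraries came from K562, an established human erythroleukemia line grown in suspension, and both groups carried an overexpressed U2AF1 S34F mutant, a splicing factor variant of myeloid neoplasms. The control group was 2 libraries of cells given the solvent DMSO, and the treated group 2 libraries of cells given SF1-8, a small molecule against the UHM domain of U2AF1, at 30 μM for 48 h. No library of cells without the mutant was part of the comparison, so it shows the compound on the mutant background alone.

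Total RNA was sequenced after ribosomal RNA removal, and the deposited table holds an FPKM value and an estimated count for each entry and library. FPKM, fragments corrected for library depth and entry length, is per length and is used here to compare genes. How the length of each entry was set is not given in the sources used here, so such comparisons are approximate. The counts summed to 45522905 in DMSO 1 and to between 64305922 and 67554610 in the other 3 libraries. In every library 4 was the commonest count above 0, so a count does not stand for 1 read and no counting interval was computed. Fold changes and p-values come from the quasi-likelihood test of edgeR, with Benjamini-Hochberg adjustment over 26167 genes, and CPM below means counts scaled to library size after TMM normalization. The labels do not say whether the replicates were separate cultures, so p-values measure only the spread between these libraries. Erythroid genes marked all 4 libraries: GATA1, the erythroid master regulator, had FPKM values from 75.9 to 79.1, and TFRC, the transferrin receptor, from 95.7 to 116.

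A basement membrane is built from a pair of networks. Laminins are trimers of 1 alpha, 1 beta and 1 gamma chain that polymerize on the cell surface, where integrins and dystroglycan hold them. Type IV collagen, whose commonest trimer combines COL4A1 and COL4A2 chains, forms a crosslinked second network, and nidogen and perlecan bridge both. Agrin binds laminins through its amino-terminal domain and is best known for organizing acetylcholine receptors at the neuromuscular junction. In the blood system these proteins are chiefly known from vessel walls and the marrow niche rather than from erythroid cells.

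The 10 genes fell into a high and a low group on the FPKM scale. The mean over 4 libraries was 18.5 for HSPG2, 15.3 for AGRN, 7.31 for LAMA5, 3.36 for LAMB1 and 1.60 for LAMB2. The other 5 genes had a mean DMSO FPKM under 1, with 4-library means of 0.208 for COL4A2, 0.177 for LAMC1, 0.0954 for COL4A1, 0.00665 for NID1 and 0.00301 for LAMA1. Within the high group the FPKM ranges of neighbouring genes did not overlap. Among COL4A2, LAMC1 and COL4A1 they did, although COL4A2 was above COL4A1 within each of the 4 libraries. With SF1-8, HSPG2, AGRN and LAMA5 had values overlapping those of the controls, while COL4A1 and LAMC1 had lower values in both treated libraries.

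**Figure D1:**
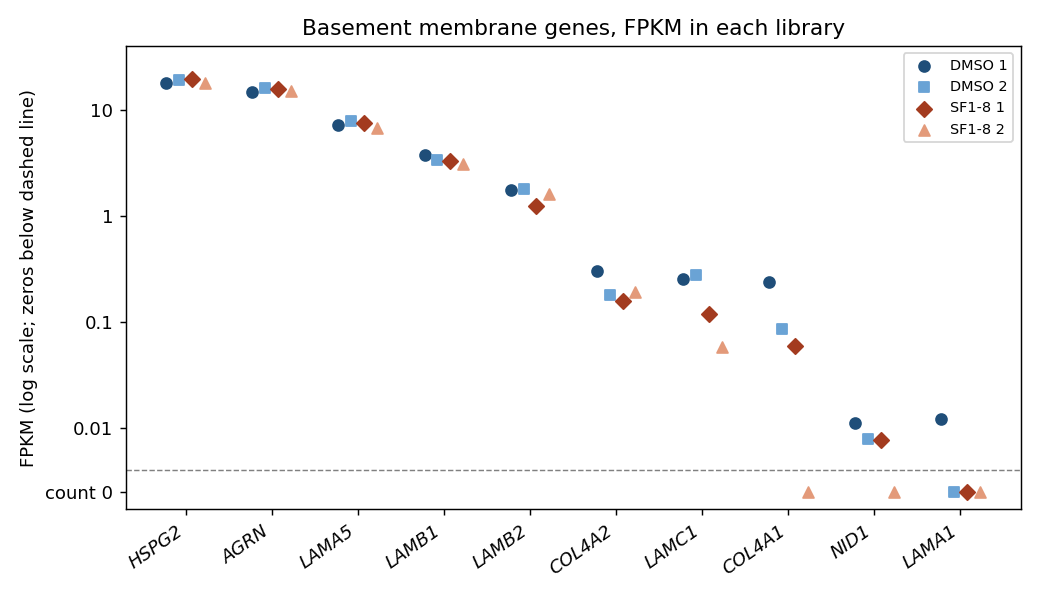
FPKM of the 10 basement membrane genes in each of the 4 libraries on a log scale, ordered by mean FPKM, with libraries at a count of 0 drawn below the dashed line. HSPG2, AGRN and LAMA5 lie between 6.76 and 19.4 in every library, while COL4A1, NID1 and LAMA1 each have at least 1 library at 0.

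Of the 10 genes, 8 passed the filter on low counts, and LAMA1 and NID1 did not. At an adjusted p under 0.05, 0 of the 8 were called by the edgeR test, where 0.0420% of all tested genes were, and their adjusted p-values lay between 0.970 and 0.986. DESeq2 called 0 of the 8 and 0.623% of all genes, and limma on log2(FPKM + 1) called 0 of the 8 and 0% of all genes. At an unadjusted p under 0.05 edgeR, DESeq2 and limma each had 1 of the 8, LAMC1. The share of all genes was 4.33% by edgeR, 4.43% by DESeq2 and 5.71% by limma. For lower genes alone it was 2.54% by edgeR. The median log2 fold change of the 8 was -0.21, and that of all tested genes was -0.01. Of the 8, 6 had a log2 fold change below 0, as had 51.6% of all tested genes. By CPM, both SF1-8 libraries lay below both DMSO libraries for 4 of the 8 genes (COL4A1, LAMB1, LAMB2 and LAMC1) and above them for 0, where 18.1% of all genes lay below and 17.3% above.

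**Figure D2:**
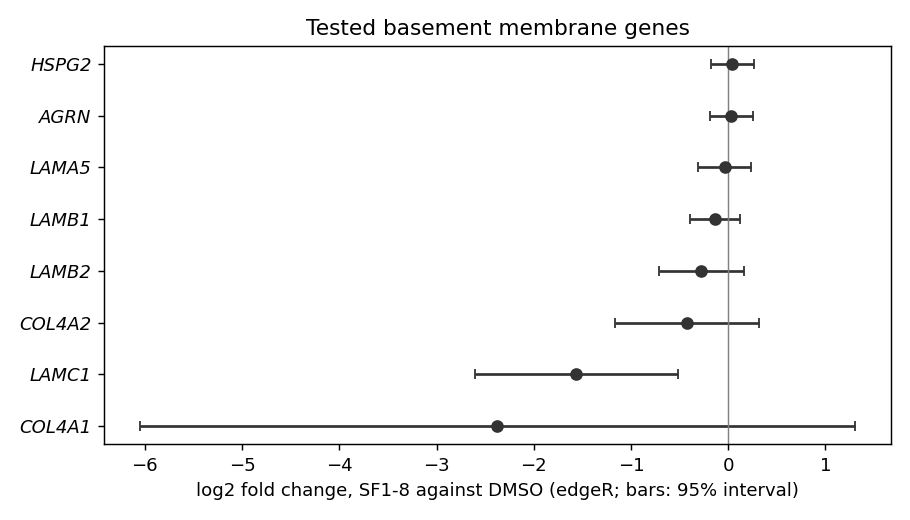
Log2 fold change of SF1-8 against DMSO for the 8 tested basement membrane genes, as points with 95% intervals from edgeR's quasi-likelihood fit on 2 libraries per group. The interval of LAMC1, from -2.61 to -0.52, lies below 0, and that of COL4A1 is the widest, from -6.05 to 1.30.

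COL4A1 and COL4A2 encode the chains of the collagen found in nearly all basement membranes, and they lie head to head on chromosome 13. In GENCODE 29 (GRCh38), COL4A1 runs on the minus strand from 110148963 to 110307233 and its longest coding transcript has 52 exons and encodes 1669 amino acids. COL4A2 runs on the plus strand from 110305812 to 110513209, with 48 exons and 1712 amino acids. By RefSeq, their start sites are 127 bases apart, and the stretch between them serves both genes. It is printed because these genes share it. The sequence is chr13:110307137-110307304 of GRCh38.p14, plus strand, with 20 bases beyond each start site, and capitals mark matches to CCAAT or GGGCGG on either strand.
COL4A1-COL4A2 shared promoter: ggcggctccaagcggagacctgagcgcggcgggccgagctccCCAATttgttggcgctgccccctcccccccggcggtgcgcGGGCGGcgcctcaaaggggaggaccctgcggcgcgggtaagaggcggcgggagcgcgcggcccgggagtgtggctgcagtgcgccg

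This stretch holds 1 match to CCAAT, 1 to GGGCGG and 0 to TATAAA. Over 35116 RefSeq promoters (250 bases before and 50 after the start), CCAAT occurs on either strand in 34.6%, GGGCGG in 45.0% and TATAAA in 11.5%. These windows are longer than the printed 168 bases. In the windows of the same size, GGGCGG matched 2 times for COL4A1 and 1 time for COL4A2. CCAAT matched 1 time and TATAAA 0 times for each.

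COL4A1 reached an FPKM of 0.238 in DMSO 1 and 0.0847 in DMSO 2, against 0.0593 in SF1-8 1 and 0 in SF1-8 2, from counts of 205, 101, 74 and 0. DMSO 1 was the highest library and SF1-8 2 the lowest, and the gap within the DMSO pair was larger than the gap between DMSO 2 and SF1-8 1. On the log2 scale the difference was -2.37 (standard error 1.44, edgeR adjusted p = 0.970), so COL4A1 did not pass. This fitted size leans on the library at 0 and on the high DMSO 1: it was -1.37 without SF1-8 2 and -1.50 without DMSO 1. With SF1-8 2 as the only treated library it was -10.42, which depends on the prior count and is no bound.

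For COL4A2 the control libraries gave FPKM 0.305 and 0.178, and the treated ones 0.158 and 0.193. Here DMSO 1 stood above the other 3 libraries, and DMSO 2 lay between the treated libraries, so the groups overlapped. The log2 fold change was -0.42 (standard error 0.291, 95% interval -1.16 to 0.32, edgeR adjusted p = 0.970), and without DMSO 1 it was -0.04. COL4A1 made up 43.8% and 32.2% of the summed FPKM of both chains in the DMSO libraries, 27.3% in SF1-8 1 and 0% in SF1-8 2. The assembled entries of both genes overlap by 1346 bases on opposite strands. The COL4A2 entry also overlaps the antisense genes COL4A2-AS2 over 6892 bases and COL4A2-AS1 over 5605 bases. These are overlaps of whole spans, introns included. Whether counting used the strand is not given in the sources used here, so reads in these overlaps cannot be assigned with certainty.

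Among the laminin alpha chains, which carry the main cell-binding domains, LAMA5 was the expressed one. The gene spans 62307955 to 62367312 of chromosome 20 (GRCh38), and its longest coding transcript has 80 exons and encodes 3695 amino acids. The LAMA5 FPKM was 7.12 and 7.83 in the controls and 7.55 and 6.76 after treatment. The groups overlapped, with a log2 fold change of -0.04 (standard error 0.108, 95% interval -0.31 to 0.24, edgeR adjusted p = 0.986). LAMA1, the alpha chain of early embryonic laminin, had a count of 12 in DMSO 1, an FPKM of 0.0121, and a count of 0 in the other 3 libraries. It was not tested, and no fold is given for it.

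The beta chains LAMB1 and LAMB2 were both present. LAMB1 spans 107923799 to 108003255 of chromosome 7 (GRCh38). Its FPKM was 3.74 and 3.36 in the controls and 3.26 and 3.08 after treatment. Both treated libraries were below both controls, but by little, with a log2 fold change of -0.13 (standard error 0.10, 95% interval -0.39 to 0.12, edgeR adjusted p = 0.970). The entry of LAMB1 overlaps the gene of the metabolic enzyme DLD, on the opposite strand, over 7932 bases. LAMB2, the beta chain of the glomerulus and the neuromuscular junction, spans 49121114 to 49133118 of chromosome 3 (GRCh38). Its FPKM of 1.74 and 1.79 in the controls compared with 1.25 and 1.62 in the treated libraries. SF1-8 1 was the low library, at a log2 fold change over both pairs of -0.28 (standard error 0.171, 95% interval -0.71 to 0.16, edgeR adjusted p = 0.970). It was -0.46 without SF1-8 2 and -0.10 without SF1-8 1.

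LAMC1, the gamma chain that most laminin trimers contain and the one nidogen binds, had the smallest p among the tested genes of this group. It spans 183023460 to 183145592 of chromosome 1 (GRCh38), with 28 exons in its longest coding transcript and 1609 amino acids. The LAMC1 entry overlaps the antisense gene LAMC1-AS1 over 2881 bases on the opposite strand, so the limit on strand given for COL4A2 holds here too. Its FPKM of 0.254 in DMSO 1 and 0.279 in DMSO 2 compared with 0.118 in SF1-8 1 and 0.0580 in SF1-8 2, from counts of 125, 191, 84 and 40. The DMSO libraries lay close together and both treated libraries were below them, SF1-8 2 the lower. The log2 fold change was -1.56 (standard error 0.410, 95% interval -2.61 to -0.52), a treated level 0.338 times that of the controls. The unadjusted p was 0.0117, and the edgeR adjusted p = 0.970, so LAMC1 did not pass over all genes. Its log2 fold change was -2.17 without SF1-8 1 and -1.14 without SF1-8 2, and its unadjusted p lay between 0.00245 and 0.0415 over the 10 alternatives. The 250 bases before its RefSeq start site, chr1:183023170-183023419 on the plus strand, are printed as those of the low member with the clearest difference, beside the same stretch of HSPG2, the highest member (chr1:21937311-21937560, minus strand). Capitals mark matches to CCAAT or GGGCGG on either strand.
LAMC1 promoter: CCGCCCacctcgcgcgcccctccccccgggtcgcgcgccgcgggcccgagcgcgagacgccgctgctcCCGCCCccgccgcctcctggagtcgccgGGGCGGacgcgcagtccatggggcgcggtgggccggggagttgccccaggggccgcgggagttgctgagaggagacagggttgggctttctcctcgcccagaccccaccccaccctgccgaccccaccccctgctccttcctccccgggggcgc
HSPG2 promoter: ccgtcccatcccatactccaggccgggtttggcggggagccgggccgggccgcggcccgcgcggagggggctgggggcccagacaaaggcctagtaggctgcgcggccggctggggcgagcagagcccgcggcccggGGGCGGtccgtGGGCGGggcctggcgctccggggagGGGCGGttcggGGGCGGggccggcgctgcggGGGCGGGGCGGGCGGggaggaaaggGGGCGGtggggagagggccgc

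GGGCGG matched 3 times in the LAMC1 stretch and 8 times in the HSPG2 stretch and CCAAT and TATAAA matched 0 times in both. RefSeq promoters were matched for 8 of the 10 genes, and those of LAMA1 and AGRN were not among them. Over the windows from 250 bases before to 50 after the start, the GC content of these 8 ran from 58.7% for LAMB2 to 83.3% for HSPG2, where the median of all promoters was 58.7%.

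By FPKM, the gamma chain was far scarcer than its partners. LAMC1 made up 1.97% and 2.10% of the summed FPKM of the 5 laminin chains with DMSO, and 0.968% and 0.504% with SF1-8. LAMA5 held 57.2% ± 2.63 (SD, n = 2) in the controls and 60.3% ± 2.34 (SD, n = 2) after treatment, and LAMB1 27.2% ± 2.62 (SD, n = 2) and 26.8% ± 0.0301 (SD, n = 2). LAMB2 took 13.5% ± 0.0339 (SD, n = 2) in the controls and 12.1% ± 2.70 (SD, n = 2) after treatment. The summed laminin FPKM was 12.9 and 13.3 with DMSO and 12.2 and 11.5 with SF1-8. The smallest two-sided p of an exact permutation of 2 against 2 is 0.333, so these shares are given without a test.

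**Figure D3:**
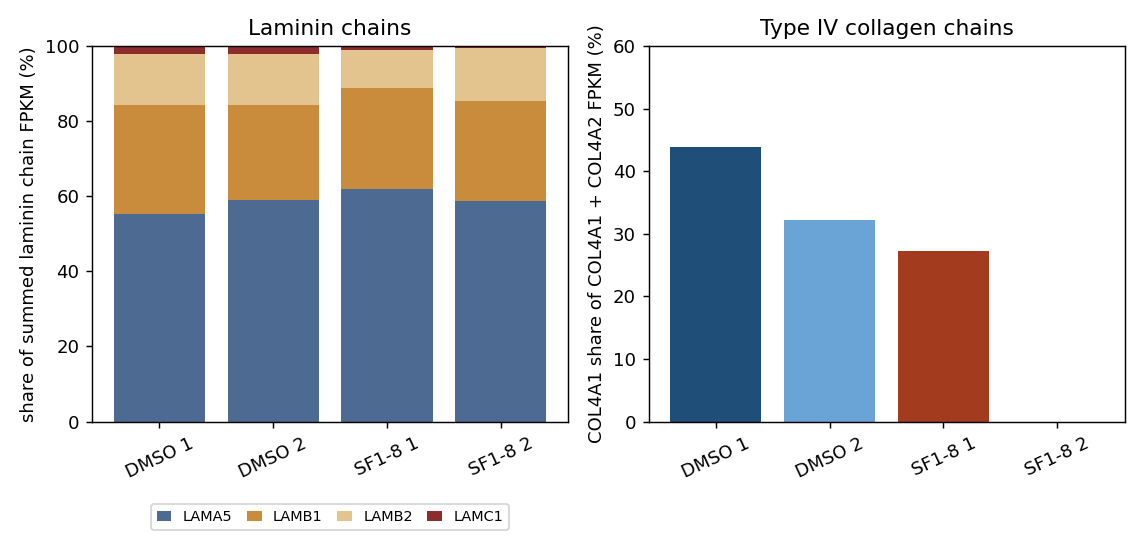
Left, share of the summed laminin FPKM held by LAMA5, LAMB1, LAMB2 and LAMC1 in each library, where LAMA1 is too low to draw. Right, COL4A1 as a share of the FPKM of COL4A1 plus COL4A2, in percent, which is 43.8 in DMSO 1 and 0 in SF1-8 2.

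The linkers and proteoglycans differed widely in level. NID1, whose protein ties laminin to type IV collagen, had counts of 4, 4 and 4 in DMSO 1, DMSO 2 and SF1-8 1 and 0 in SF1-8 2, an FPKM of at most 0.0110. These values are at the smallest common step of the counts, and NID1 was not tested. HSPG2 encodes perlecan, a heparan sulfate proteoglycan that binds laminin, nidogen and growth factors, with 97 exons and 4391 amino acids. The gene spans 21822245 to 21937297 of chromosome 1 (GRCh38). HSPG2 gave FPKM 17.9 and 18.9 in the controls and 19.4 and 17.8 after treatment. The groups overlapped, and the difference on the log2 scale was 0.04 (standard error 0.0876, 95% interval -0.18 to 0.26, edgeR adjusted p = 0.977). AGRN, with 36 exons and 2045 amino acids, spans 1020123 to 1056118 of chromosome 1 (GRCh38). Its FPKM was 14.8 and 15.9 in the controls, against 15.7 and 15.1 after treatment. These ranges overlapped as well, at a log2 fold change of 0.03 (standard error 0.0874, 95% interval -0.19 to 0.25, edgeR adjusted p = 0.985). For LAMA5, HSPG2 and AGRN the sign of the fold change turned when single libraries were left out, and their 95% intervals leave room for changes of up to 0.31 on the log2 scale. The entry of HSPG2 overlaps LDLRAD2 over 2978 bases on the opposite strand. That of LAMA5 overlaps ADRM1 over 908 bases and the antisense gene LAMA5-AS1 over 3486 bases, both on the opposite strand.

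Markers of fibroblasts and stroma followed the libraries in a way close to COL4A1. Summed over the 9 of 10 such markers with an entry of their own, the FPKM was 10.2 in DMSO 1 and 5.01 in DMSO 2, against 2.57 in SF1-8 1 and 0.594 in SF1-8 2. COL1A1, the main chain of type I collagen, alone gave 5.39, 2.60, 1.21 and 0.0982. COL1A2, its partner chain, gave 2.16, 1.22, 0.729 and 0.399, and COL3A1, the chain of type III collagen, 1.92, 0.697, 0.319 and 0.0570. In these 3 genes DMSO 1 was the highest library and SF1-8 2 the lowest. LUM, which encodes the small proteoglycan lumican, had counts of 27 and 19 with DMSO and 0 in both treated libraries, and DCN (decorin) had counts of 62, 18, 4 and 0. PDGFRB, a growth factor receptor of pericytes and fibroblasts, had counts of 27, 12, 4 and 3. Other markers did not follow this order. THY1, a surface glycoprotein of fibroblasts and other cells, overlapped between the groups at FPKM 0.132 and 0.0773 in the controls and 0.191 and 0.0366 after treatment. PDGFRA was left out of the sum because its entry also names FIP1L1, and that shared entry was higher in both treated libraries, at 3.48 and 3.67 against 3.33 and 3.22. Of the 10 stromal markers 9 were tested, 7 were lower in both SF1-8 libraries and 1 higher in both, beside 18.1% and 17.3% of all genes. By edgeR, 5 had an unadjusted p under 0.05, all of them lower, beside 2.54% of all genes, and 0 an adjusted p under 0.05. The authors had already reported COL1A1, COL1A2 and COL3A1 as down-regulated in these data, and the list was chosen with earlier results known. These counts therefore describe the list and do not test it. Relative to DMSO 1, the stromal sum stood at 48.99%, 25.1% and 5.81% in DMSO 2, SF1-8 1 and SF1-8 2. COL4A1 stood at 35.6%, 24.9% and 0%. LAMC1 was at 110%, 46.4% and 22.8%, so its DMSO libraries did not differ in the way the stromal sum did. That sum came mostly from COL1A1, COL1A2 and COL3A1, and not every marker in it had their order. The DMSO libraries of POSTN (periostin) lay as close as those of LAMC1, at FPKM 0.290 and 0.292, against 0.111 and 0 with SF1-8. COL4A2 was at 58.6%, 51.9% and 63.2%, and HSPG2 between 99.3% and 108.5%. The part of these markers in the COL4A1 and LAMC1 values was not tested, and in bulk RNA fewer cells of a type cannot be told apart from less RNA per cell.

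**Figure D4:**
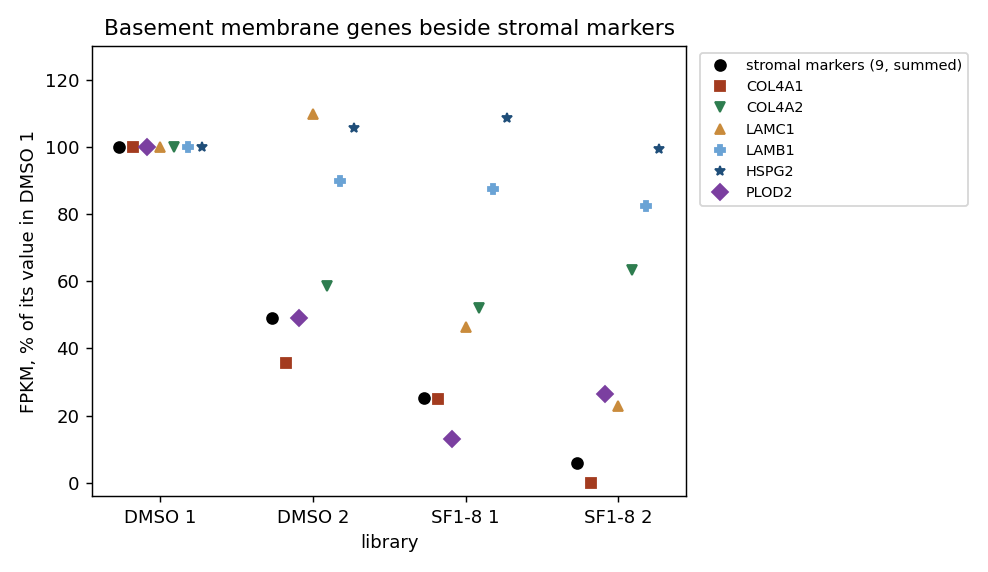
FPKM in each library as a percent of its value in DMSO 1, for 6 genes and for the sum of 9 fibroblast and stromal markers. COL4A1 and the stromal sum are highest in DMSO 1 and lowest in SF1-8 2, while HSPG2 stays between 99.3 and 108.5.

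Of the other marker lists, the smooth-muscle sum was also highest in DMSO 1 and lowest in SF1-8 2, over a smaller range, and the endothelial, epithelial and erythroid sums were not. Of 8 endothelial markers, CDH5, VWF, KDR and EMCN were at 0 in every library, and the summed FPKM was between 1.06 and 1.30, mostly from PECAM1, which is also found on blood cells. ESAM, an endothelial adhesion molecule and the next highest, had counts of 12 and 15 in the controls and 19 and 9 after treatment. The epithelial sum of 7 markers was between 83.8 and 95.4, led by KRT18 and KRT19, with KRT5 at 0 throughout. Of the smooth-muscle type markers, the 5 with an own entry summed to 5.53 and 3.76 with DMSO and 3.47 and 3.18 with SF1-8. In this list ACTA2 (smooth muscle actin) gave 2.26, 1.03, 0.525 and 0.0302, and DES (desmin) 2.54, 2.12, 2.26 and 2.51. The order of the sum was that of ACTA2, and CNN1, DES and MYH11 did not share it. TAGLN, left out of the sum because its entry also names AP000892, did share it, at FPKM 1.23, 1.15, 0.828 and 0.336. MYH11 had FPKM 0.0845 and 0.0875 with DMSO and 0.109 and 0.115 with SF1-8. Of 5 tested genes 2 were lower in both SF1-8 libraries and 1 higher, beside 18.1% and 17.3% of all genes. The erythroid sum, over the 5 of 12 markers with an own entry (GATA1, KLF1, TAL1, TFRC and ALAS2), was between 213 and 234. It leaves out the globin and glycophorin markers. The entry shared by HBG1, HBG2 and HBE1 had FPKM 33.3 and 29.3 with DMSO and 27.5 and 27.8 with SF1-8 (edgeR adjusted p = 0.970). By CPM, 1 of 10 tested erythroid entries was lower in both SF1-8 libraries and 1 higher, beside 18.1% and 17.3% of all genes.

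Other chains of basement membranes were mostly low. Of 16 listed genes 10 were tested, 0 passed the unadjusted or the adjusted threshold by edgeR, and the median log2 fold change was -0.12. The highest were COL15A1, at FPKM 2.37 and 2.25 in the controls and 2.01 and 2.10 after treatment, and COL18A1, the endostatin precursor, with 1.84, 2.04, 1.74 and 1.81. COL4A6 was at 0 in every library.

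Receptors of basement membranes included genes with clear expression. ITGB1, the beta chain of the laminin- and collagen-binding integrins, had an FPKM of 34.7 and 21.3 in the controls and 24.6 and 34.4 after treatment, with the replicates farther apart than the groups. SDC4, a cell surface proteoglycan, was lower in both treated libraries, at 4.76 and 4.79 against 5.86 and 5.42, with an edgeR adjusted p = 0.970. Of 15 tested receptor genes 2 had an unadjusted p under 0.05 by edgeR, beside 4.33% of all genes. LRP4, the agrin receptor of muscle, differed by 1.22 on the log2 scale (standard error 0.362) from FPKM values of 0.0632 and 0.0571 to 0.113 and 0.166, and DDR1, a collagen receptor kinase, by -0.24 (standard error 0.0923). Neither passed the adjustment (edgeR adjusted p = 0.970 for each).

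Among the enzymes and chaperones that fold and crosslink type IV collagen, the most abundant stood far above the collagen chains per length. PPIB, a collagen prolyl isomerase, stood at FPKM 91.2 and 93.5 in the controls and 94.2 and 93.0 after treatment. P4HB, a subunit of prolyl 4-hydroxylase, had 56.6 and 56.5 against 54.7 and 58.2. The list's median log2 fold change was 0.0005. Of its 19 tested genes 1 had an unadjusted p under 0.05 by edgeR, near the 4.33% of all genes. That gene was PLOD2, a lysyl hydroxylase of collagen, at FPKM 0.263 and 0.129 in the controls and 0.0340 and 0.0692 after treatment (log2 fold change -1.89, standard error 0.536, edgeR adjusted p = 0.970). Against DMSO 1, PLOD2 stood at 49.01%, 12.9% and 26.3% in the other libraries.

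Among the associated proteins 10 of 16 were tested and 0 passed either threshold by edgeR, with 8 lower, 2 higher and a median of -0.23. FN1 (fibronectin), the highest, had an FPKM of 14.4 and 12.4 in the controls and 12.2 and 10.3 after treatment (log2 fold change -0.22, edgeR adjusted p = 0.970). SPARC, a collagen-binding protein that assists type IV collagen deposition, had 9.83 and 8.64 against 8.30 and 7.22 (log2 fold change -0.22, edgeR adjusted p = 0.970). For both genes SF1-8 1 lay just below DMSO 2. Of 17 genes of basement membrane breakdown 12 were tested and 0 passed either threshold by edgeR, with a median of -0.003. By CPM, 3 of the 12 (MMP2, TIMP2 and TIMP3, all low genes) were lower in both SF1-8 libraries and 0 higher, beside 18.1% and 17.3% of all genes. TIMP1, an inhibitor of matrix metalloproteinases, had 28.7 and 27.3 with DMSO and 28.5 and 26.3 with SF1-8. The lysosomal protease CTSL had 15.6 and 16.3 against 15.4 and 16.3.

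**Figure D5:**
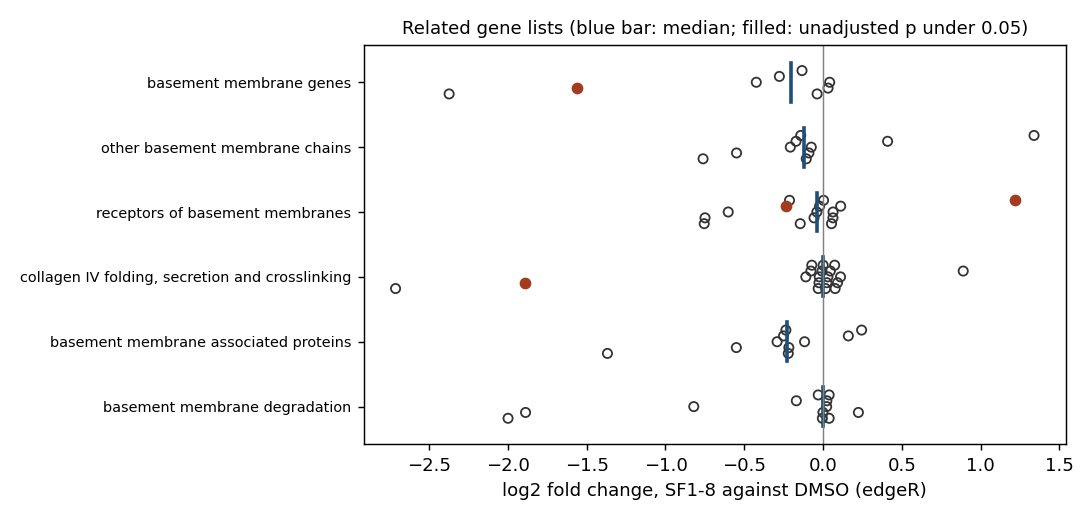
Log2 fold changes of SF1-8 against DMSO for the tested genes of the basement membrane group and of 5 related lists, 1 point per gene, with the list median as a bar and genes at an unadjusted p under 0.05 filled. Medians run from -0.23 for the associated proteins to 0.0005 for the folding and crosslinking genes, and 4 points are filled: LAMC1, LRP4, DDR1 and PLOD2.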

How the data were processed

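Total RNA of 4 K562 libraries was sequenced by the submitters, whose processing notes name cutadapt, FastQC, Bowtie2, HISAT2, StringTie and hg38, without roles. The authors deposited FPKM values, normalized for length and depth, with 0.0001 where a count is 0, and estimated counts per entry without normalization. Such stand-ins were set to 0 here. The 2095 entries that name no gene, with 0.372% of the counts, were left out, and 2088 entries name more than 1 gene. Among the members, the LAMA5 entry also names MIR4758 and the AGRN entry also names AL645608, and both were used as they stand. The members and the gene lists were chosen with earlier results of these data known.

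Counts were filtered by filterByExpr, normalized by TMM and tested by edgeR 4.0.16 (glmQLFTest) in R 4.3.3, two-sided, with Benjamini-Hochberg adjustment over all genes tested and a threshold of 0.05. Standard errors are the log2 fold change over the root of the F statistic. Alternatives used DESeq2 1.42.0, limma 3.58.1 on log2(FPKM + 1) or log2(FPKM + 0.1), which understates changes of low genes, no filter, a replicate block, counts divided by 4, and leaving out each library. The fit was tested on simulated counts. From each other list, genes at an unadjusted p under 0.05 and the 2 with the highest mean FPKM were named, and others named were chosen after their values were seen. Coordinates are from GENCODE 29, and promoters from RefSeq (GRCh38.p14). Transcript-level values were not analysed here.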

Additional observations from a re-analysis of the deposited data

How the results depend on the processing

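The 8 tested genes had no adjusted p under 0.05 in any of the 10 alternatives, and COL4A1, COL4A2, LAMB1, LAMB2 and LAMC1 were lower with SF1-8 in all 10. Over all genes the number called moved from 11 to 163 with DESeq2, 31 with no filter on low counts, 0 with limma on log2(FPKM + 1), 0 with limma on log2(FPKM + 0.1), and 0 to 30 when libraries were left out. The median of the tested basement membrane genes moved from -0.206 to -0.342 with no filter on low counts, where LAMA1 and NID1 enter, to -0.101 with limma on log2(FPKM + 1), whose pseudocount shrinks low genes, and to between -0.120 and -0.273 when libraries were left out. Those at an unadjusted p under 0.05 numbered 1 to 2 without single libraries, COL4A2 joining without DMSO 2, where 7.96% of all genes had such a p, and COL4A1 without SF1-8 1, where 4.13% had. With counts, which are not corrected for length, in place of FPKM, LAMC1 was 1.27% of the laminin sum with DMSO against 2.04%. Whether length alone makes this difference was not tested. Signs turned for LAMA5 (0.0802 without DMSO 2, 0.0503 without SF1-8 2, lowest -0.143), HSPG2 (-0.0348 without DMSO 1, -0.0262 without SF1-8 1, highest 0.128) and AGRN (-0.0585 without DMSO 1, highest 0.133).

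With the replicate block, 0 genes were called over the table and 2 of the 8 had an unadjusted p under 0.05, COL4A1 (log2 fold change -3.30) and LAMC1 (-1.64), both with an edgeR adjusted p = 0.993, beside 3.71% of all genes at such an unadjusted p. Deviations of same-numbered libraries from their group means correlated at -0.0179 over 15830 genes. A single value over all these genes cannot show whether same-numbered libraries were handled together, and the labels do not say. Where 1 library was left out, the lone library of its group was assumed to vary like the other group. Depth was lowest in DMSO 1, and NID1, at a count of at most 4, the commonest above 0, and LAMA1, above 0 in 1 library, were too low to compare.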

Other observations

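The gene table holds 3 more assembled entries that name HSPG2, all inside the span of the gene on chromosome 1 of GRCh38. The entry from 21919445 to 21924945, on the plus strand, opposite to HSPG2, measured 1.42 ± 0.0824 FPKM (SD, n = 2) in the controls and 1.34 ± 0.0842 FPKM (SD, n = 2) after treatment. The entry from 21920397 to 21926739 on the minus strand had 0.552 ± 0.0305 (SD, n = 2) and 0.532 ± 0.0257 (SD, n = 2). The entry from 21916776 to 21917936, with no strand, had 1.12 ± 0.407 (SD, n = 2) and 1.16 ± 0.00661 (SD, n = 2). In all 3 the groups overlapped, as they did for the main HSPG2 entry.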
